A study of Homo sapiens with 8 samples.

Results

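The genes described here encode mitogen-activated protein (MAP) kinases and the kinases above them, phosphatidylinositol kinases, AKT and ribosomal S6 kinases. They also encode protein kinases A and C, AMP-activated protein kinase (AMPK), casein kinases and GSK3. The receptors among them belong to the ERBB, TGF-β, BMP, Frizzled and LRP families, and the SMAD effectors of the TGF-β and BMP receptors are included. Members were chosen by the start of the gene symbol in both deposited tables of poly(A) site usage, leaving out antisense genes, a rule that uses no measured value. There were 95 such genes among 7504 in all, with 79 in both tables, 6 only in the MDA-LM2 table and 10 only in the sgHNRNPC table. AKT1, MTOR and MAPK3 were in neither table, and 5 members matched the symbol rule but are no kinase, kinase subunit, receptor or SMAD. These were MAPK1IP1L, the JNK scaffold MAPK8IP2, the divergent transcript MAP4K3-DT, PRKCSH, a glucosidase subunit, and TGFBRAP1, a receptor-associated protein.

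The libraries were mRNA 3′-end libraries from 8 samples of human breast cancer cells in 4 groups of 2 replicates. MDA-MB-231 is a poorly metastatic triple-negative line and MDA-LM2 its derivative selected for lung colonization, and each stands for a single cell population. The sgControl and sgHNRNPC groups are MDA-MB-231 cells that carry the CRISPR interference repressor dCas9-KRAB, with a control guide RNA or a guide against HNRNPC. HNRNPC is a nuclear RNA-binding protein that prefers runs of U, and the study compared MDA-LM2 with MDA-MB-231 and sgHNRNPC with sgControl cells to ask how poly(A) site choice changes with metastatic capacity and with loss of this protein. No treatment or time course was applied in these groups. The methods of the study describe its sequencing experiments as biological duplicates, and the labels give no further detail on the cultures.

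Many genes end their mRNA at more than 1 poly(A) site, and the site used sets which 3′ untranslated sequence the mRNA carries. For each pair of sites of a gene the tables give logAPAR, the log change of the ratio of the proximal to the distal site. A value below 0 is a shift to the distal site and a value above 0 a shift to the proximal site. No value of a single sample and no count was given, so the depth of each library, the level of each mRNA and the spread between replicates are unknown, and the knockdown of HNRNPC could not be checked. A standard error (SE) was therefore derived from each logAPAR and its P value. Within every member gene the logAPAR values were exact differences between sites, and the variances were sums of 1 term per site to within 0.0191% for MDA-LM2 and 0.0166% for sgHNRNPC. This is the form of a regression on counts, so each pair's P value is that of a Wald chi-square test with counting error, which need not include the spread between the 2 replicates of a group. All calls below on single pairs use this P value before adjustment, and a gain or loss is named only where it was below 0.05. The site terms also gave an effective count for each site of genes with 3 or more sites, which is the harmonic mean of the normalized counts of both groups if the log is natural.

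MAP kinase cascades pass a signal from MAP4K and MAP3K enzymes to MAP kinase kinases and on to ERK, JNK and p38 kinases. ERBB receptors feed these cascades and PI3K, whose lipid product recruits AKT. TGF-β and BMP receptors phosphorylate SMAD proteins, whereas Frizzled and LRP6 receive Wnt ligands and restrain the casein kinase and GSK3 complex that marks β-catenin for decay. These pathways govern proliferation, migration and invasion of breast cancer cells.

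Members had a mean of 3.4 sites per gene for MDA-LM2 and 3.65 for sgHNRNPC, against 3.06 and 3.17 over all genes. The 163 transcript ends listed for members included 138 that GENCODE v44 holds under the same identifier and version, and in every one of the 71 and 62 member pairs made of 2 such ends the distal end lay downstream on GRCh38. The canonical poly(A) signal AATAAA was present on the transcript strand in the last 40 bases of 37.0% of these member ends, against 37.9% of the 11678 placed ends of all genes. ATTAAA without AATAAA was present in 10.1% and 9.77%. A run of at least 5 T in the last 100 bases was found in 29.0% of member ends and 27.2% of all ends. Of the member ends, 95 belonged to protein-coding transcripts, 17 to transcripts marked for nonsense-mediated decay, 14 to retained introns and 10 to transcripts with no defined coding sequence, and 11 carried the tag that the mRNA end was not found.

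The following 30-base windows (GENCODE v44, GRCh38, 5′ to 3′ on the transcript strand) show ends of CSNK1A1, SMAD5 and BMPR2. The poly(A) signal is in capitals where the last 40 bases held AATAAA or ATTAAA. The distal end of CSNK1A1 holds AATAAA 15 bases before the end and the proximal end holds neither signal. SMAD5 shows the same contrast, and its proximal end is tagged as an incomplete mRNA. The distal transcript ends of EGFR and MAPK1IP1L, not printed here, held neither signal in their last 40 bases.
CSNK1A1 proximal end, chr5:149495785-149495814, minus strand: aaaaaagtaattcttttgtctgaaggggaa
CSNK1A1 distal end, chr5:149492985-149493014, minus strand: gtcaattatcaaAATAAActggtagcaacg
SMAD5 proximal end, chr5:136154134-136154163, plus strand: cataccactataagagagtggagagtccag
SMAD5 distal end, chr5:136182704-136182733, plus strand: attctttactttAATAAAcctcaaaacctg
BMPR2 distal end, chr2:202567715-202567744, plus strand: gttattccgtttATTAAAgatcatattaat

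Of the 98 HNRNPC binding sequences that the study placed in its reporter library, 3 matched a member gene on GRCh38. They are shown as 30-base windows around their longest run of T, or the first of equal runs. That run is written in capitals, because HNRNPC prefers runs of U in RNA.
SMAD3, chr15:67194585-67194614, plus strand: taactatttaaTTTTTTTTaagaaagttgg
MAP3K7, chr6:90516333-90516362, minus strand: tttcattgtttaTTTTccttttctcatggt
FZD2, chr17:44560098-44560127, plus strand: ccctgcaggctggaagatcTTTctcctgtc
The longest run was 8 T in SMAD3, 4 in MAP3K7 and 3 in FZD2. In sgHNRNPC cells the best-measured pair of SMAD3 had a logAPAR of -0.08 (SE 0.20), that of MAP3K7 -0.40 (SE 0.38) and that of FZD2 -0.49 (SE 0.33). None of these passed a P value of 0.05.

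In MDA-LM2 cells, 4 of the 85 member genes had a pair with P below 0.01, a share of 4.71% against 2.72% of all 6541 genes. They were MAP4K4, CSNK1A1, MAPK1IP1L and EGFR, in 7 of 458 pairs (1.53%, beside 0.803% of all pairs), and no member had an adjusted P below 0.05 over all pairs, where 0.122% of all genes did. The lowest adjusted P of a member pair was 0.753, in MAP4K4, followed by 0.968 in the same gene and 0.974 in the others. Members had more pairs per gene than all genes, with a mean of 5.39 against 4.13, which gives each more chances to pass. With 1 chi-square test per gene over all its sites, only MAP4K4 passed 0.01 (1.18% of members against 1.38% of all genes). By the pair with the lowest SE of each gene, called the best-measured pair, again only MAP4K4 passed (1.18% against 1.45%). At P below 0.05 for any pair, 8 members passed, 9.41% against 11.0% of all genes. The further 4 were SMAD5, PRKACB, FZD6 and RPS6KA3.

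In sgHNRNPC cells, none of the 89 member genes had a pair with P below 0.01 by the deposited logistic regression, against 1.62% of all 6801 genes, and none had an adjusted P below 0.05, against 0.338%. At P below 0.05 there were 2 members, CSNK1A1 and BMPR2, a share of 2.25% against 4.51%. The test over all sites called 0 members at 0.01 (0.853% of all genes), with a lowest P of 0.171 for MAP2K7, and the best-measured pair also called 0 (1.25% of all genes). The z-scores of that table had an SD of 0.736 over all pairs. When they were rescaled to an SD of 1, CSNK1A1 and BMPR2 passed 0.01, a share of 2.25% against 5.15% of all genes. In both tables the share of members that passed was thus at or below the background under every rule given here except any pair with P below 0.01 in MDA-LM2 cells.

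**Figure D1:**
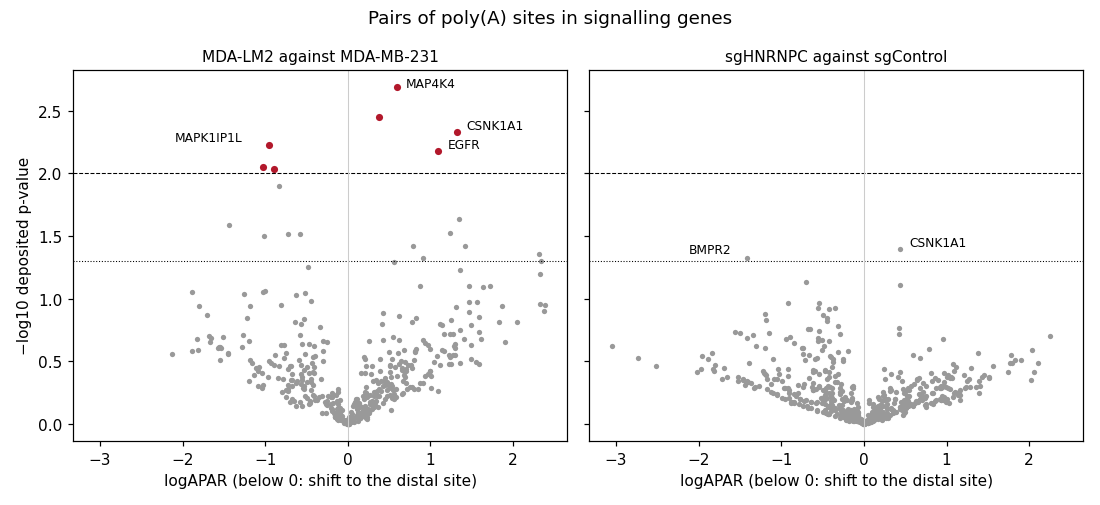
Each point is a pair of poly(A) sites of a member gene, with logAPAR on the x axis and −log10 of the deposited p-value on the y axis, for MDA-LM2 against MDA-MB-231 cells (left, 458 pairs) and sgHNRNPC against sgControl cells (right, 564 pairs). The dashed line marks a p-value of 0.01 and the dotted line 0.05. The 7 coloured pairs, all in the left panel, pass 0.01.

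MAP4K4, an upstream kinase of the JNK cascade that is linked to cell migration, had the lowest P value of the members in MDA-LM2 cells (chromosome 2, 101696850 to 101894690 on GRCh38, plus strand). Its most proximal listed site gained against 2 sites that lie 36169 and 36858 nt downstream of it in the positions of the table. The logAPAR was 0.38 (95% interval 0.13 to 0.64, Wald chi-square P = 0.00357) against the nearer site and 0.59 (0.22 to 0.97, P = 0.00204) against the farther one. These 3 sites held 50.9%, 32.2% and 11.3% of the effective count, 300, 190 and 66.7 in turn, so the shift concerned the main sites of the gene. The next listed position lay 35215 nt downstream of the proximal site. Whether the proximal site lies in the 3′ untranslated region of the other sites was not tested. The transcript end at the far 3′ end held 4.12%, and against it the site at 36858 nt had a logAPAR of -0.73 (-1.38 to -0.07), which is a gain of that end. The chi-square test over its 6 sites gave P = 0.00657, with a Benjamini-Hochberg adjusted P of 0.661 over all genes.

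With HNRNPC targeted, the same pairs of MAP4K4 were at -0.19 (-0.53 to 0.15) and -0.13 (-0.51 to 0.25). The values of the comparisons differed by 0.58 (0.15 to 1.00) for the nearer site and by 0.72 (0.19 to 1.26) for the farther one. Each Wald chi-square test of the difference gave P = 0.00798, and the adjusted value over all shared pairs was 1.00. In that table the sites at 36169 and 36858 nt held 51.4% and 23.7% of the effective count and the proximal site 14.8%. The logAPAR between the leading pair of sites was 0.06 (-0.22 to 0.35) there.

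CSNK1A1 encodes casein kinase 1α, which primes β-catenin for GSK3 (chromosome 5, 149492982 to 149551471, minus strand). In MDA-LM2 cells site 5 of 8, counted from the proximal side, lost against its neighbours. The logAPAR was 1.32 (0.41 to 2.24, Wald chi-square P = 0.00465) for site 4 against site 5, 450 nt apart. It was -1.03 (-1.79 to -0.26, Wald chi-square P = 0.00885) for site 5 against the distal transcript end shown above. All 6 pairs of CSNK1A1 with P below 0.05 included site 5, which held 6.74% of the effective count, about 14.7, against 52.5% at the distal end. The pair of the 2 transcript ends shown above was the best measured, at -0.12 (-0.71 to 0.47), and the chi-square test over all sites gave P = 0.139.

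The same ends of CSNK1A1 gave 0.42 (-0.21 to 1.05) in sgHNRNPC cells. There the proximal end gained against site 6, which led with 35.4% of the effective count, by 0.44 (0.02 to 0.86, Wald chi-square P = 0.0401, adjusted value 1.00). Site 5 held 3.30% in that table and was at 0.11 (-0.94 to 1.15) against the distal end. The difference between the comparisons for site 4 against site 5 was 1.45 (0.12 to 2.78), with an adjusted P of 1.00.

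EGFR, the epidermal growth factor receptor (chromosome 7, 55019017 to 55211628, plus strand), is highly abundant in MDA-MB-231 cells. Site 3 of 7 gained in MDA-LM2 cells. The logAPAR was -0.89 (-1.56 to -0.22, Wald chi-square P = 0.00930) for site 1 against site 3, 1493 nt apart, and 1.09 (0.30 to 1.88, P = 0.00662) for site 3 against site 5. Site 3 held 4.05% of the effective count, about 18.1, whereas site 1 held 71.8% and the distal transcript end 12.4%. Site 1 against that end was at -0.09 (-0.50 to 0.31), so the ratio of the main proximal to the most distal site of EGFR lay within 0.5 of 0 at 95% confidence. The chi-square test over all sites gave P = 0.179. With HNRNPC targeted, site 1 against the distal end was at -0.25 (-0.74 to 0.24), and site 1 against site 3, numbered as in MDA-LM2, was at 0.43 (-0.54 to 1.41). The difference between the comparisons for the latter pair was -1.32 (-2.51 to -0.14), with an adjusted P of 1.00.

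MAPK1IP1L, 1 of the 5 members that are no kinase, receptor or SMAD (chromosome 14, 55051647 to 55070194, plus strand), lost use of its most proximal site in MDA-LM2 cells. Site 1 was at -0.95 (-1.63 to -0.27, Wald chi-square P = 0.00599) against site 3, 952 nt apart, and at -0.84 (-1.50 to -0.18) against site 6, 4759 nt away. Site 1 held 10.4% of the effective count, site 3 28.8% and site 6 37.3%. With HNRNPC targeted, the same pairs were at -0.56 (-1.42 to 0.31) and -0.70 (-1.46 to 0.07). The chi-square test over all 7 sites gave P = 0.0684 in MDA-LM2 and 0.697 in sgHNRNPC cells.

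**Figure D2:**
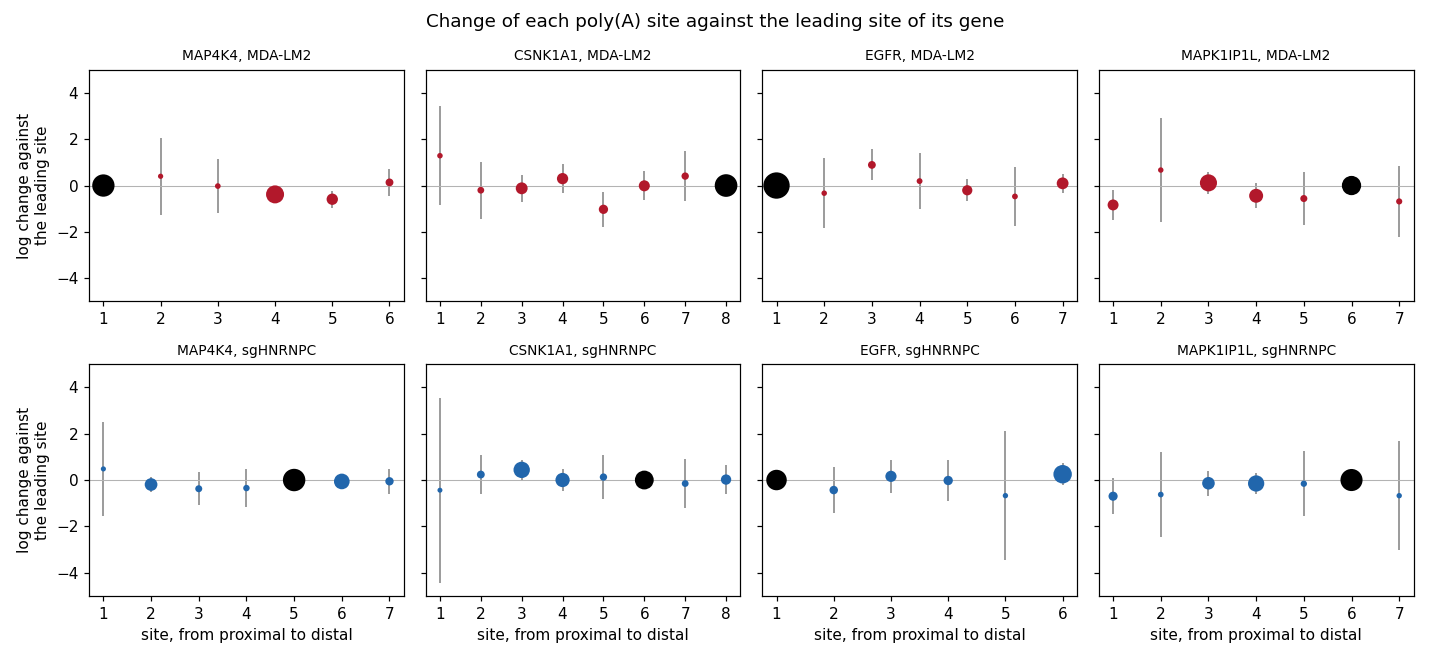
For the 4 genes with a pair at P below 0.01 in MDA-LM2 cells, the log change of each site against the leading site of its gene (y axis) is drawn in order from proximal to distal (x axis), with MDA-LM2 cells above and sgHNRNPC cells below. Bars are 95% intervals, point area grows with the share of the effective count, the leading site is black, and sites are numbered within each table. The large points of MAP4K4 differ in MDA-LM2 cells, whereas in CSNK1A1 and EGFR a small point stands apart.

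Where values of both comparisons stand side by side below, MDA-LM2 first, they are those of the best-measured pair that both tables list unless another pair is named, and counts and medians of a family use the best-measured pair of each table. Over all genes the best-measured pair was below 0 in 52.3% for MDA-LM2 and 57.4% for sgHNRNPC. The families hold few genes, and no family was tested against other genes. Among ERBB receptors, EGFR had the smallest SE. ERBB2, the amplification target of HER2-positive tumours, was at -0.41 (SE 0.78) in MDA-LM2 and 0.75 (SE 1.92) in sgHNRNPC cells, and its partner ERBB3 was at -0.72 (SE 1.20) and 0.74 (SE 1.52). These intervals reach beyond 1 in both directions. Of the TGF-β and BMP receptors, 6 were listed in each table without TGFBRAP1, and 3 had a best-measured pair below 0 in each, as had 3 by the outermost pair. TGFBR1, the type I TGF-β receptor, was at 0.31 (SE 0.87) and -0.02 (SE 0.39), and TGFBR2, its type II partner, at -0.58 (SE 0.44) and 0.47 (SE 0.74). BMPR1A, a type I BMP receptor, had the lowest P of the group in MDA-LM2 cells, with an interval from -2.14 to 0.14.

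BMPR2, the type II BMP receptor (chromosome 2, 202376327 to 202567751, plus strand), had the most negative best-measured pair of all members in sgHNRNPC cells. Its first listed site against the distal end shown above was at -1.42 (-2.82 to -0.02, Wald chi-square P = 0.0474, adjusted value 1.00). The distal end held 74.3% of the effective count, about 25.1, and the first site 13.7%, about 4.61. In MDA-LM2 cells the distal end held 91.4%, and no BMPR2 pair had a P below 0.605.

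All 4 SMAD genes, SMAD2, SMAD3, SMAD4 and SMAD5, were listed in both tables. Their best-measured pair was below 0 in 3 of them in MDA-LM2 cells (median -0.30) and in 4 of them in sgHNRNPC cells (median -0.32). By the outermost pair 3 were below 0 in MDA-LM2 cells (median -0.35), but only 2 in sgHNRNPC cells, where the median turned to 0.28. SMAD5, a BMP effector (chromosome 5, 136132845 to 136188747, plus strand), was below 0 in both for the pair of ends shown above. Its proximal end against the distal end was at -0.58 (-1.11 to -0.05, Wald chi-square P = 0.0305) in MDA-LM2 and -0.45 (-1.06 to 0.15) in sgHNRNPC cells. The difference was -0.13 (-0.93 to 0.67). SMAD3, a TGF-β effector, was measured more tightly, at -0.12 (-0.50 to 0.26) and -0.08 (-0.48 to 0.31), so the interval in sgHNRNPC cells lay within 0.5 of 0. SMAD4, the shared partner, was at -0.77 (SE 0.65) and -0.15 (SE 1.02).

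Frizzled and LRP genes numbered 9 in MDA-LM2 and 11 in sgHNRNPC cells, and 6 and 7 of them had a best-measured pair above 0. By the outermost pair 5 were below 0 in each table, with medians of -0.01 and 0.09, so the majority turned in MDA-LM2 cells. FZD6, a Frizzled receptor, was the only one with a pair at P below 0.05, at 1.35 (Wald chi-square P = 0.0233) in MDA-LM2 cells. Its chi-square test over all sites gave P = 0.0697. The proximal site of that FZD6 pair held 6.99% of the effective count, about 6.85. LRP6, the Wnt co-receptor, was at -0.07 (SE 0.61) and 0.03 (SE 0.61). LRP10 was measured well, at 0.04 (-0.28 to 0.37) in MDA-LM2 cells.

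In the MAP3K and MAP4K tiers, without MAP4K3-DT, 11 genes were listed in MDA-LM2 and 10 in sgHNRNPC cells, with medians of the best-measured pair of 0.22 and 0.14. The lowest P of the tier in sgHNRNPC cells belonged to MAP3K2, an upstream kinase of ERK5 and JNK, with a pair at -1.50 (SE 1.14). MAP3K7, the TGF-β-activated kinase TAK1, was at -0.80 (SE 0.67) and -0.40 (SE 0.38). All 3 MAP kinase kinases of the MDA-LM2 table were below 0 (median -0.42). In sgHNRNPC cells 2 of 4 were below 0 (median 0.03), or 1 of 4 by the outermost pair (median 0.45). MAP2K7, the JNK activator, was at -0.25 (-0.66 to 0.15) in MDA-LM2 cells. It was at 0.42 (-0.18 to 1.02) in sgHNRNPC cells, and the difference between the comparisons was -0.68 (-1.40 to 0.05). MAP2K1, the ERK activator MEK1, was listed only in the sgHNRNPC table, at 0.88 (SE 1.89).

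Of the MAP kinases, 6 were listed in each table and none passed 0.05. MAPK9, the JNK2 kinase, had the lowest P of them in MDA-LM2 cells, at 1.46 (SE 0.83), and was at -0.02 (SE 0.57) in sgHNRNPC cells. The p38α kinase MAPK14 was at 0.28 (SE 0.33) and -0.02 (SE 0.25).

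PI3K genes numbered 7 and 8, with medians of -0.04 and 0.15. By the outermost pair the medians were -0.03 and 0.60, with 4 of 7 and 3 of 8 below 0. The catalytic subunit PIK3CA was at -0.53 (SE 0.82) and -0.00499 (SE 0.62), and the regulatory subunit PIK3R1 was at 0.62 (SE 0.42) and 0.31 (SE 0.51). PIK3C3, the autophagy PI3K VPS34, had the lowest P of the group in each table through different pairs, and its best-measured shared pair was at -0.49 (SE 0.52) and -0.62 (SE 1.01). Of the PIP kinases, which make and use phosphoinositides, 3 of 3 were below 0 in MDA-LM2 and 1 of 4 in sgHNRNPC cells (2 of 4 by the outermost pair), and the shared pair of PIP4K2A was at 0.22 (SE 0.39) and 0.24 (SE 0.40).

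In AKT2 a single site held 95.5% of the effective count in MDA-LM2 and 95.4% in sgHNRNPC cells, and each of its other 3 sites was minor. The best-measured pair of AKT2, which included that site, was at 0.22 (SE 0.34) and -0.25 (SE 0.24). RPS6KA3, the ribosomal S6 kinase RSK2, had its outermost pair at 2.34 (0.00217 to 4.68, Wald chi-square P = 0.0498) in MDA-LM2 cells. Its chi-square test over all sites gave P = 0.173. The 2 sites of the outermost pair held 3.75% and 2.53% of the effective count, about 3.49 and 2.36, and another site held 77.7%. RPS6KB1, the S6 kinase of the mTOR pathway, was at 0.39 (SE 0.38) and -0.07 (SE 0.35).

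PRKAR2A, the RIIα regulatory subunit of protein kinase A, was the most precise of all members in MDA-LM2 cells, at 0.02 (-0.23 to 0.26), and was at 0.06 (-0.20 to 0.33) in sgHNRNPC cells, for 2 sites 83 nt apart. PRKACB, a catalytic subunit, had its outermost pair at 1.42 (Wald chi-square P = 0.0383) in MDA-LM2 and -1.20 (SE 1.04) in sgHNRNPC cells. The difference was 2.63 (0.18 to 5.07), with an adjusted P of 1.00. Of the protein kinase C genes, PRKCA was at -0.64 (SE 0.45) and -0.19 (SE 0.63), and PRKCI at 0.35 (SE 0.67) and 0.48 (SE 1.10). Casein kinase genes numbered 8 and 9, with medians of -0.21 and -0.45 and with 5 and 6 below 0. By the outermost pair the direction in MDA-LM2 cells turned, with 1 of 8 below 0 and a median of 0.42, whereas 6 of 9 were below 0 in sgHNRNPC cells (median -0.46). CSNK1D was at 0.09 (SE 0.20) and -0.00963 (SE 0.24). GSK3B, the kinase that marks β-catenin, was at 0.34 (SE 0.45) and -0.02 (SE 0.45).

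**Figure D3:**
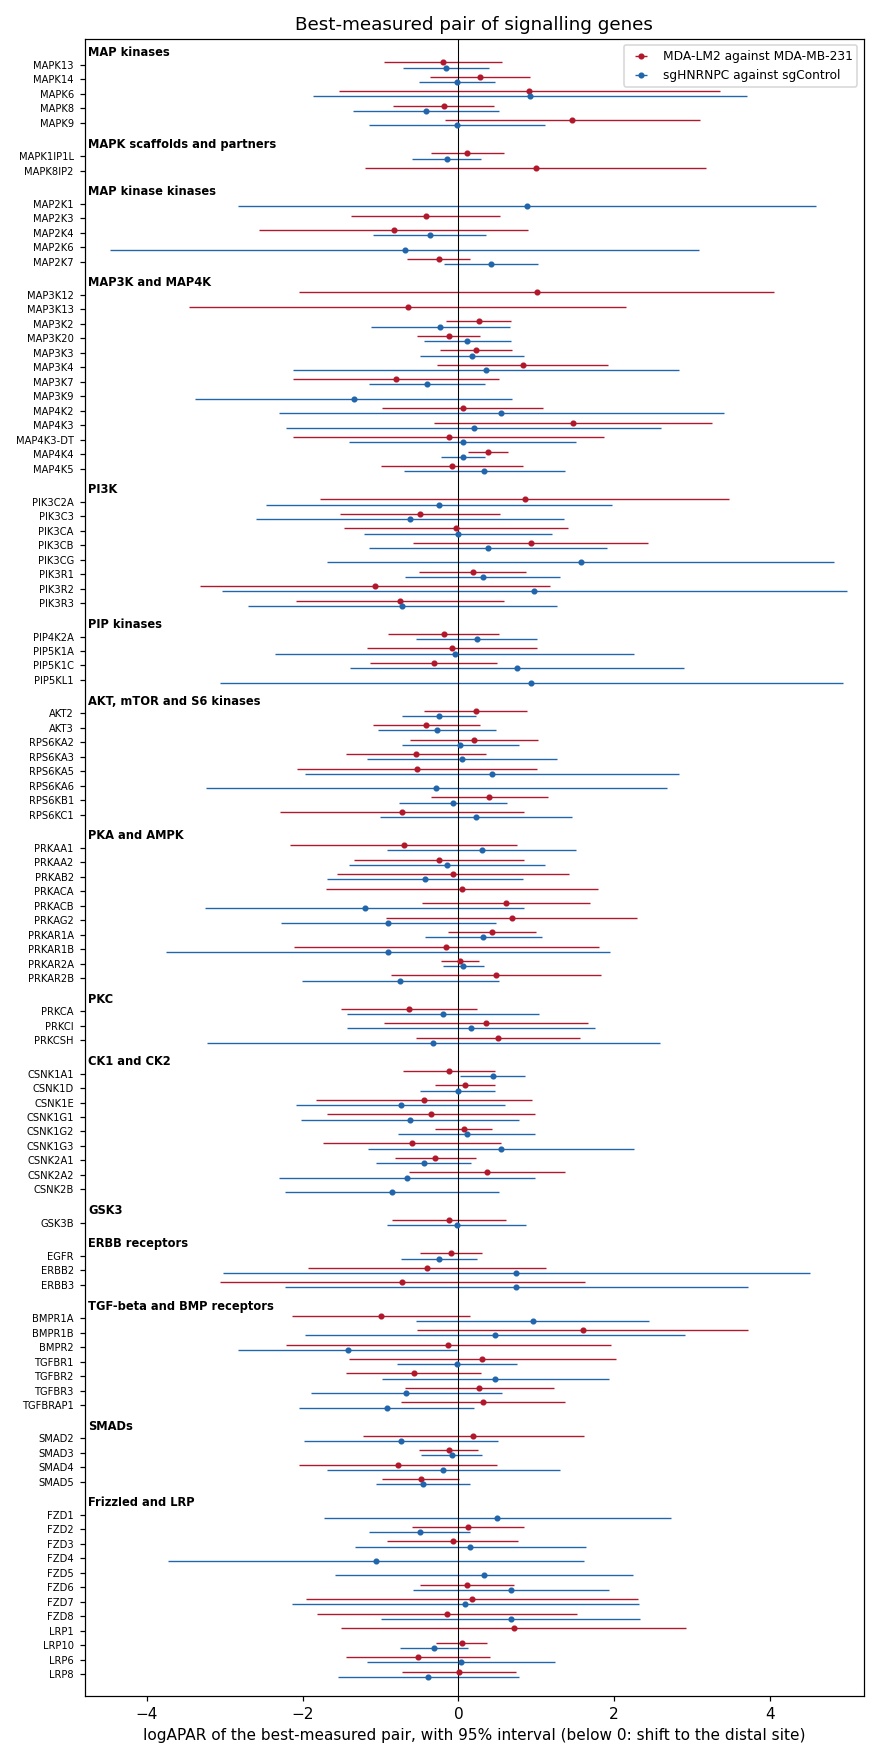
For the member genes reported here, grouped by family, the logAPAR of its best-measured pair is drawn with its 95% interval (x axis) for MDA-LM2 cells in red and sgHNRNPC cells in blue. Only MAP4K4 in MDA-LM2 cells and CSNK1A1 and BMPR2 in sgHNRNPC cells have an interval that leaves out 0.

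Over the 85 members in MDA-LM2 cells the outermost pair, made of the first and last listed sites, had a median logAPAR of -0.01, beside -0.03 over all genes, and 50.6% of members were below 0, beside 52.3%. In sgHNRNPC cells the median was -0.01 over 89 members, beside -0.11 over all genes, and 51.7% of members were below 0, beside 57.9%. These are descriptions, and the median of members was not tested against that of other genes. The precision of members was close to that of all genes. The best-measured pair had a median SE of 0.54 in MDA-LM2 cells (0.54 over all genes) and 0.64 in sgHNRNPC cells (0.67 over all genes).

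The 95% interval of the best-measured pair lay within 0.5 of 0 in 5 members in MDA-LM2 cells (5.88%, beside 6.56% of all genes), PRKAR2A, CSNK1G2, CSNK1D, EGFR and LRP10, and in 4 in sgHNRNPC cells (4.49%, beside 3.90%), MAP4K4, PRKAR2A, CSNK1D and SMAD3. The SE of the best-measured pair was under 0.25 in 12 members in MDA-LM2 (14.1%, beside 14.3% of all genes) and 10 in sgHNRNPC cells (11.2%, beside 9.84%). A leading site could be named for 51 members in MDA-LM2 cells, where it was the most proximal site in 9, the most distal in 17 and a site between in 25. In sgHNRNPC cells it could be named for 60, with 5, 28 and 27. Of the 49 members with a leading site in both tables, 25 had the same one (51.0%, beside 66.5% of 2974 genes in all). Members had more sites per gene than all genes, and this difference was not tested. The leading site held a median of 51.0% and 57.8% of the effective count.

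Of the 370 member pairs present in both tables with an SE, 2 differed between the comparisons with P below 0.01, both in MAP4K4, a share of 0.541% against 0.385% of all 21291 pairs. At P below 0.05 there were 7, in MAP4K4, CSNK1A1, PRKACB and EGFR, a share of 1.89% against 1.97%, and no adjusted P was below 1.00. The comparisons share no samples. By the best-measured shared pair of the 79 common genes, 22 were below 0 in both (27.8%, beside 31.2% of 5661 genes in all), 17 above 0 in both (21.5%, beside 20.8%) and 40 of opposite sign (50.6%, beside 48.1%). No member had the same pair with P below 0.05 and the same sign in both.

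**Figure D4:**
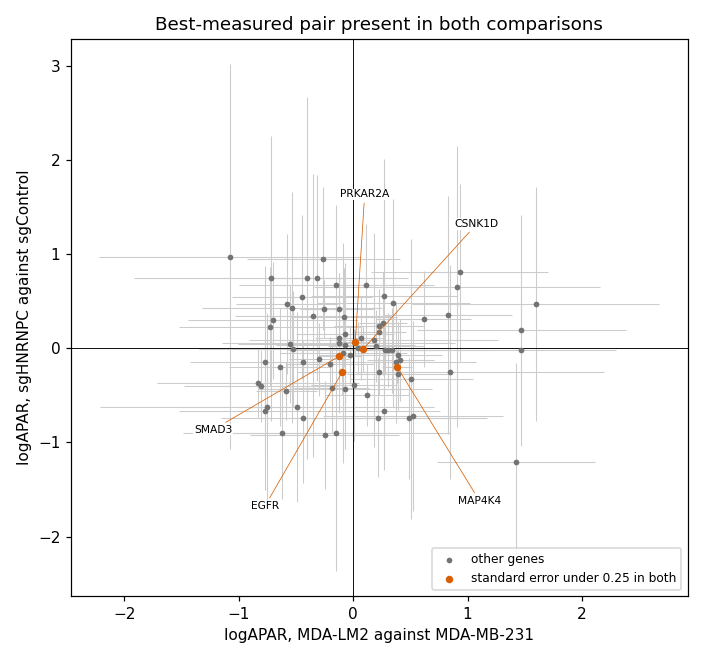
The logAPAR of the best-measured shared pair of 79 member genes in MDA-LM2 cells (x axis) is plotted against that in sgHNRNPC cells (y axis), with bars of 1 SE. The 5 genes with an SE under 0.25 in both are named, and of these only MAP4K4 lies more than 2 SE from 0 in either direction, at 0.38 in MDA-LM2 cells.

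Other genes of the same pathways were taken from a list of 66 receptors, kinases, ligands and regulators that are not members. The list was chosen with earlier results of these data known, so its shares do not measure these pathways. A pair with P below 0.01 was found in 2 of the 48 genes listed in MDA-LM2 cells (4.17%, beside 2.72% of all genes). In sgHNRNPC cells it was found in 3 of the 50 listed (6%, beside 1.62%). With the test over all sites at 0.01 this fell to 1 gene in each, DUSP4 in MDA-LM2 (2.08%, beside 1.38%) and AXL in sgHNRNPC cells (2%, beside 0.853%). By the best-measured pair it was GRB2 alone in MDA-LM2 (2.08%, beside 1.45%), and AXL and DUSP4 in sgHNRNPC cells (4%, beside 1.25%). At P below 0.05 for any pair it was 7 genes (14.6%, beside 11.0%) and 3 (6%, beside 4.51%). The 2 genes with a pair at P below 0.01 in MDA-LM2 cells both shifted to the distal end. They were DUSP4, a phosphatase that inactivates MAP kinases, at -0.63 (SE 0.17, Wald chi-square P = 0.000206, adjusted value 0.180), and GRB2, the adaptor between receptors and RAS, at -0.51 (SE 0.18, P = 0.00478). With HNRNPC targeted, DUSP4 was at -0.35 (SE 0.12, Wald chi-square P = 0.00358) for another proximal site against the same end. That pair was at -0.37 (SE 0.19) in MDA-LM2 cells, and the pair called there was at -0.07 (SE 0.17) in sgHNRNPC cells. The same GRB2 pair was at -0.44 (SE 0.24) in sgHNRNPC cells, and the difference between the comparisons was -0.07 (SE 0.30). SMURF2, a ubiquitin ligase of the TGF-β pathway, was at -0.59 in sgHNRNPC cells (SE 0.19, Wald chi-square P = 0.00158, adjusted value 0.729). The same SMURF2 pair was at 0.14 (SE 0.14) in MDA-LM2 cells, and the difference between the comparisons was 0.73 (SE 0.24), with an adjusted P of 1.00.

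AXL, a receptor tyrosine kinase linked to invasion, was the only gene of that list with an adjusted P below 0.05 in sgHNRNPC cells, where it shifted to the proximal end. Its 2 transcript ends gave a logAPAR of 0.63 (0.39 to 0.87, Wald chi-square P = 3.35e-07, adjusted value 0.00116). The same pair was at -0.14 (SE 0.16) in MDA-LM2 cells. The difference between the comparisons was -0.77 (SE 0.20, Wald chi-square P = 0.000139), with an adjusted P of 0.369 over all shared pairs.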

How the data were processed

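QuantSeq 3′-end libraries were quantified by the authors with Salmon 0.14.1 against non-redundant Gencode v33 transcript ends. Their APAlog tool then ran multinomial logistic regression on the normalized counts. UMI-tools and hg38 are named in the submitters' processing notes. Per site pair, the deposited tables give the logAPAR of the authors (log base not named), a p-value and a q-value. These are the authors' own comparison values, and they are analysed here because the tables hold no count and no column of a single sample. The q-value was checked to equal the Benjamini-Hochberg adjustment within each table, and adjusted P means this q-value unless another test is named.

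From these, the standard error was taken as the absolute logAPAR divided by the normal quantile of the two-sided p-value. Site terms came from least squares within each gene, the test over all sites was a chi-square test on them, and comparisons were set against each other by a two-sided Wald test, adjusted by Benjamini-Hochberg over all shared pairs. Fits covered all genes. A gene was called at P below 0.01 for any pair. Genes named were those called, at most 20 a table, the lowest P of each family in each table, members with the same pair at P below 0.05 in both, and a short list of core pathway genes, of which 1 is not reported here. LRP10, CSNK1D, SMAD2, SMAD3, MAP3K7, MAPK14, RPS6KB1, ERBB2, ERBB3 and CSNK1G2 were named after their values were seen. Members and lists were chosen with earlier results of these data known. Listed genomic positions belong to a build other than GRCh38 and served only as labels and for distances within a gene. Coordinates of genes and transcript ends come from GENCODE v44. Scripts ran under Python 3.11.15 with scipy 1.17.1 for tests, matplotlib 3.10.9 for plots, and pandas 2.3.3 on numpy 2.4.6 for tables, and were tested on simulated data.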

Additional observations from a re-analysis of the deposited data

How the results depend on the processing

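No paired analysis was possible because only pooled regression results were at hand, with replicates numbered in the labels but not separate in any column. For the same reason the settings without each replicate and with a replicate block were not run. In MDA-LM2 cells the 4 called members became 8 at P below 0.05 and 0 at P below 0.001, at an adjusted P below 0.1, by the outermost pair, by pairs of 2 transcript ends and by Simes' P per gene adjusted over all genes. They became 1 by the best-measured pair and 1 by the test over all sites, both chosen after seeing the data. In sgHNRNPC cells the 0 called members became 2 at P below 0.05 and 2 with rescaled z-scores. The median of the outermost pair in MDA-LM2 cells, -0.01, turned to 0.0435 by the pair with the lowest P, 0.0435 by the median over all pairs of a gene and 0.0233 when centred on all genes. This median stayed below 0 over the 23 members with an SE under 0.5 (-0.09) and by the best-measured pair (-0.07). That in sgHNRNPC cells, -0.01, turned to 0.00448 by the median over all pairs and 0.10 when centred, and moved to -0.19 by the pair with the lowest P and -0.21 over the 10 members with an SE under 0.5. The sign of both medians is therefore not settled. The 2 member pairs that differed between the comparisons became 7 at P below 0.05, 0 by outermost pairs and 4 with rescaled z-scores. Without the 5 members that are no kinase, receptor or SMAD, the 4 called in MDA-LM2 cells became 3, since MAPK1IP1L was left out. The cause of the shifts in the called genes was not tested. An SE under 0.25 was reached by 5.46% of member pairs for MDA-LM2 and 3.19% for sgHNRNPC, which limits what a single pair can show.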
